A study of Rattus norvegicus with 72 samples.

Results

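The genes described here encode 40 secreted plasma proteins of rat complement, coagulation and the acute phase response, with the inhibitors and carriers that circulate beside them. A list of 47 gene symbols was matched to the array's annotation, and a gene was kept where a probe set carried that symbol alone. C2, Cfb, F7, F11, F13b, Kng1 and Saa4 had no such probe set and are not analysed here. The 40 genes come from 14217 genes measured in this way, and 12 act in complement, 14 in coagulation or fibrinolysis and 14 as acute phase or other plasma proteins. Where a gene had several probe sets, as Fga, Fgb, Cp and Mbl2 did, the brightest one stands for it.

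RNA was measured on 72 Affymetrix arrays, and values are log2 signals, so a difference of 1 unit is a doubling. Liver, adipose tissue and mammary gland each gave 4 groups of 5 arrays, namely lactating rats in hypergravity, lactating rats at standard gravity, pregnant rats in hypergravity and pregnant rats at standard gravity. Hypergravity is a load above that of Earth. Array codes give the tissue (L, A or M), the rat and the gravity (H or S), and the same 20 rats gave all 3 tissues. Another 12 arrays hold pregnant mammary gland, 4 each from microgravity (FLT), from its flight controls (FDS) and from vivarium controls (VIV). The labels give neither strain, age, load nor duration, and say nothing of pooling. Beyond the rat codes they do not say how the animals were sampled, so p-values measure the spread between these arrays.

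Array medians lay between 4.32 and 4.56 in the first 60 arrays and between 4.87 and 5.02 in the microgravity set, so levels are not compared between these sets. A signal near or below the median of its array is close to what an unexpressed gene gives. Arrays M210H and A210H carried each other's tissue markers and were left out: the mean of 6 milk protein genes was 3.10 on M210H, where the other 4 arrays of its group had 12.07 to 12.24, and 12.27 on A210H, where its group had 3.01 to 3.14. Hepatocyte marker genes (13 on the array) averaged 9.22 on M56H and 6.42 on M52S, and M57S carried them too. On M56H, 38 of the 40 genes lay above the median of the other arrays of its group, by a median of 3.62 log2 units. The corresponding counts were 37 genes on M52S (1.01) and 31 on M57S (0.31). Mammary comparisons below are therefore also given without these 3 arrays. Skeletal muscle markers were high on M212H, M50H, A48S, A217H, VIVA and VIVC. In liver all groups held hepatocyte markers at 11.71 to 12.01.

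Complement is a cascade of blood proteases that marks microbes and damaged cells and ends in a pore built from its late components. Coagulation is a second protease cascade, which converts fibrinogen to fibrin, and plasmin later dissolves the clot. Hepatocytes secrete most of these proteins, and in inflammation cytokines such as interleukin-6, acting through STAT3 and C/EBP transcription factors, change the output of a subset called acute phase proteins. In the rat, alpha-2-macroglobulin (A2m) and orosomucoid (Orm1) are known as strongly inducible members of that subset. Several of the genes are also active outside the liver, in fibroblasts, macrophages, fat cells and secretory epithelium.

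In liver all 40 genes lay above the array median on every one of 20 arrays. Mean signals ran from 9.26 (Lbp) to 12.88 (C3), with a median of 11.72, although signals of different probe sets do not rank the genes. Across the 12 complement genes the means spanned 10.32 (C1s) to 12.88 (C3), across the 14 coagulation genes 9.40 (F5) to 12.59 (Fgb), and across the other 14 genes 9.26 (Lbp) to 12.86 (Hp). The list was assembled from plasma proteins of the liver, so this order of tissues is a description and was not tested. In adipose tissue (19 arrays) 24 of the 40 genes lay above the array median on none of the arrays, and in mammary gland without the 3 arrays carrying hepatocyte RNA (16 arrays) the number was also 24. For 36 of the 40 genes every liver array lay above every adipose array and all 19 mammary arrays, including the 3 carrying hepatocyte RNA. Liver exceeded adipose tissue by more than 6 log2 units for 31 genes and mammary gland (16 arrays) by more than 6 for 32 genes. The shares of all genes behaving in these ways were not taken, so the counts do not set this list apart from other genes.

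A minority of the genes had clear signals outside the liver. C1s, the protease of the first complement complex, averaged 9.85 ± 0.54 in adipose tissue (SD, n = 19) and 8.82 ± 0.96 in mammary gland (n = 16), against 10.32 ± 0.22 in liver (n = 20). Serping1, the inhibitor of that protease, averaged 9.82 ± 0.65 in adipose tissue and 8.42 ± 0.65 in mammary gland, against 11.10 ± 0.17 in liver. C6, a component of the membrane pore, was at 8.30 ± 1.18 in adipose tissue but at 3.51 ± 0.37 in mammary gland. Serpina3n, a secreted protease inhibitor, was likewise higher in adipose tissue (8.34 ± 1.32) than in mammary gland (5.45 ± 0.87).

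Other genes were bright in mammary gland. C3, the central complement protein, averaged 10.08 ± 1.48 there and 5.46 ± 1.62 in adipose tissue, against 12.88 ± 0.14 in liver. Cp, the copper carrier and ferroxidase ceruloplasmin, averaged 10.04 ± 0.66 in mammary gland and 7.28 ± 0.78 in adipose tissue, against 12.19 ± 0.24 in liver. Lbp, which binds bacterial lipopolysaccharide and hands it to the receptor Cd14, averaged 9.70 ± 1.35 in mammary gland and 4.15 ± 1.19 in adipose tissue, against 9.26 ± 0.36 in liver. Lbp was thus the one gene of the 40 with a mammary mean above its liver mean, and the arrays of both tissues overlapped. Vtn, the adhesive plasma protein vitronectin, was at 7.12 ± 0.68 in mammary gland and 6.75 ± 0.70 in adipose tissue. By contrast, the coagulation genes did not exceed a mean of 4.49 in mammary gland or 4.46 in adipose tissue (F12 in both).

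**Figure D1:**
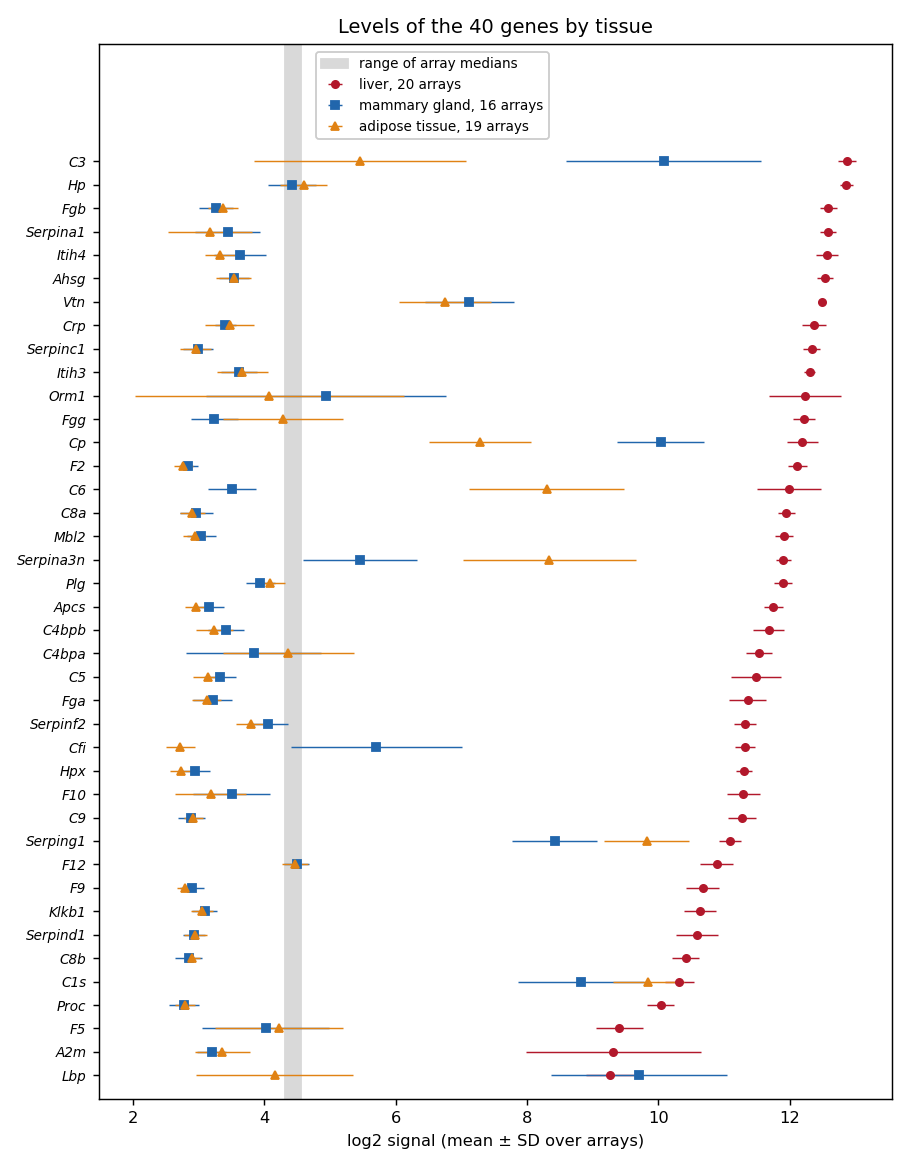
Mean log2 signal of each of the 40 genes (rows, ordered by liver mean) in liver (circles, 20 arrays), mammary gland (squares, 16 arrays, without M52S, M56H and M57S) and adipose tissue (triangles, 19 arrays), with bars for the SD over arrays and a grey band for the range of array medians. Liver means lie between 9.26 and 12.88 throughout, and most mammary and adipose means lie at or left of the band.

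Within liver groups the genes varied little between rats. The pooled within-group SD had a median of 0.144 log2 units over the 40 genes, was smallest for Vtn (0.056) and was under 0.3 for 35 of them. A2m, a broad protease inhibitor, was the exception with an SD of 1.18, followed by C6 (0.44), C5 (0.38), F5 (0.38) and Lbp (0.37). Livers of lactating rats in hypergravity had A2m signals of 10.57, 8.90, 6.39, 8.81 and 8.12, and those of lactating rats at standard gravity had 8.76, 9.55, 7.37, 8.63 and 8.59. Pregnant livers had 10.51, 10.73, 9.98, 8.31 and 10.24 in hypergravity and 10.18, 11.35, 10.64, 7.92 and 10.75 at standard gravity. Rats of both stages overlapped at either gravity, and the stage difference was not called (log2 fold change of lactation over pregnancy -1.40, SE 0.67, adjusted p = 0.311 in hypergravity, and -1.59, SE 0.67, adjusted p = 0.376 at standard gravity, limma).

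Genes for chains of 1 protein were compared as deviations from the group mean over the 20 livers, in 5 pairs with 100000 permutations. The permutations mixed the 20 deviations across groups and did not allow for the group means removed, so the p-values are likely too small. Of the fibrinogen chains, Fgb and Fgg varied together (Pearson's r = 0.79, permutation p = 1e-05, the smallest these permutations can give, adjusted p = 5e-05). Spearman's rho was 0.79 (permutation p = 5e-05, adjusted p = 0.00025), and r was 0.78 without the 2 livers farthest from the median. Fga and Fgb had r = 0.73 and rho = 0.57 (permutation p = 0.00038 and 0.0093, adjusted p = 0.00095 and 0.0233), but r was 0.46 without 2 livers. Fga and Fgg had r = 0.51 and rho = 0.46 (permutation p = 0.02 and 0.042, adjusted p = 0.0336 and 0.0524), and r = 0.20 without 2 livers, so that relation rests on them. For C4bpa and C4bpb, the chains of the C4b-binding protein, r was 0.44 and rho 0.52 (permutation p = 0.049 and 0.021, adjusted p = 0.0614 and 0.0355), with r = 0.53 without 2 livers. C8a and C8b, chains of the eighth component, had r = 0.23 and rho = 0.13 (permutation p = 0.34 and 0.59, adjusted p = 0.343 and 0.591), and r = 0.12 without 2 livers. The median r over all 780 pairs of the 40 genes was 0.24, with quartiles of 0.03 and 0.43. The permutations test for any correlation and not for one above this background, so the p-values do not set the chains of 1 protein apart.

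The first liver comparison asked how the genes differ between lactation and pregnancy. In hypergravity 4 of the 40 genes were higher in lactating liver and 1 was lower, where 4.38% of all 14217 genes were called (1.83% higher and 2.55% lower). A gene is called where the adjusted p of limma, over all 31042 probe sets, is under 0.05. The 4 genes were Orm1, C9, Serping1 and C8b, and the lower one was F10. The median change of the 40 genes was -0.03, against 0.02 for all genes. At standard gravity 0 of the 40 were called, where 0.732% of all genes were, and 9 of the 40 had an unadjusted p under 0.05, as did 3382 of all 31042 probe sets.

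Orm1, which encodes the carrier orosomucoid, had the widest difference among the 5 called genes. Livers of lactating rats in hypergravity had 12.71, 12.93, 12.53, 12.63 and 12.69, against 11.78, 10.84, 11.76, 11.48 and 11.54 in pregnant rats in hypergravity. The groups did not overlap, and lactating livers were 2.33-fold higher (log2 fold change 1.22, SE 0.157, adjusted p = 0.000149). At standard gravity lactating livers had 12.72, 12.79, 12.72, 12.45 and 12.52, against 12.04, 11.78, 12.30, 12.37 and 12.15 in pregnancy. These groups did not overlap either, but the difference of 0.51 (SE 0.157) was not called (adjusted p = 0.169). Of the 4 groups the pregnant livers in hypergravity were the lowest.

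C9 and C8b encode late components that insert into the complement pore. For C9, lactating livers in hypergravity had 11.49, 11.38, 11.52, 11.53 and 11.30, against 10.93, 11.13, 11.19, 11.05 and 10.76 in pregnancy (log2 fold change 0.43, SE 0.108, adjusted p = 0.0289). For C8b the values were 10.72, 10.63, 10.46, 10.36 and 10.64 in lactation, against 10.19, 10.33, 10.09, 10.002 and 10.20 in pregnancy (0.40, SE 0.101, adjusted p = 0.0318). Neither gene overlapped between the stages. Serping1 had 11.35, 11.28, 11.20, 11.27 and 11.19 in lactation, against 10.92, 10.79, 11.11, 10.71 and 10.90 in pregnancy (0.37, SE 0.0936, adjusted p = 0.0313). F10, coagulation factor X, went the other way, with 11.29, 10.81, 11.24, 10.79 and 11.13 in lactation, against 11.40, 11.51, 11.58, 11.52 and 11.50 in pregnancy (-0.45, SE 0.115, adjusted p = 0.0363). At standard gravity F10 averaged 11.13 ± 0.16 in lactation and 11.50 ± 0.12 in pregnancy (n = 5 each), a difference of -0.37 that was not called (adjusted p = 0.181). Itih4 (-0.25, adjusted p = 0.324) and Serpinc1, the thrombin inhibitor antithrombin (-0.23, adjusted p = 0.326), were the other 2 genes with the smallest p at standard gravity.

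**Figure D2:**
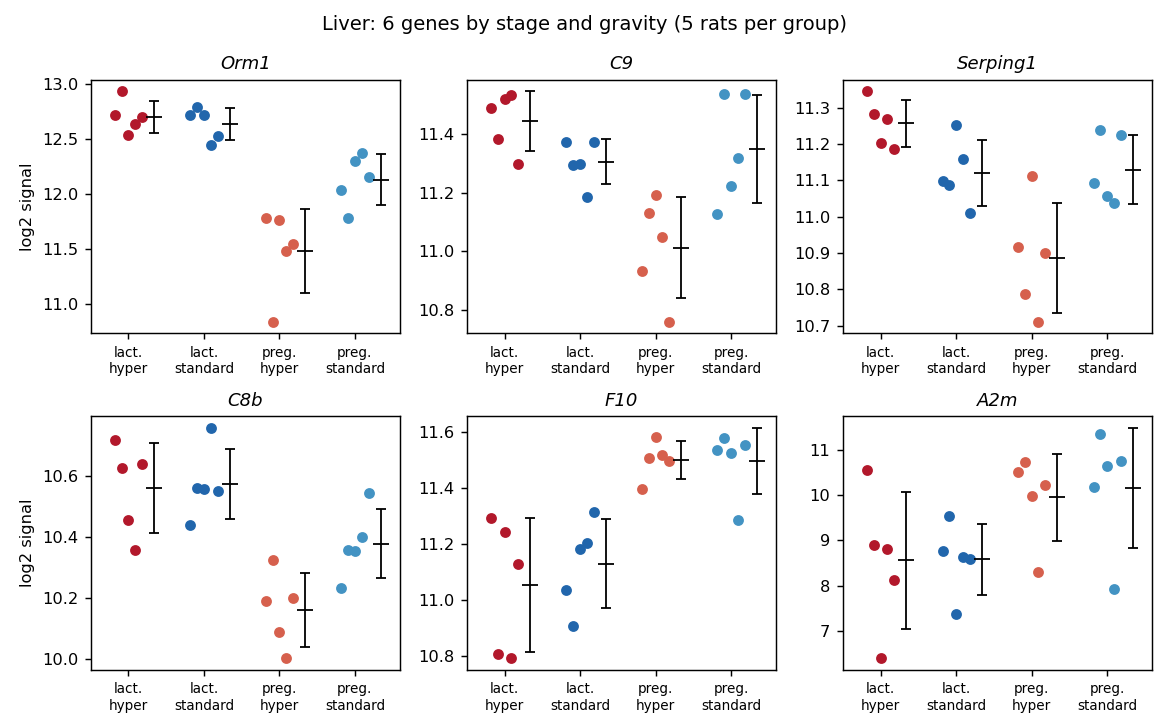
Log2 signal in liver (vertical axes, each with its own range) for 6 genes in 4 groups of 5 rats, with 1 point per rat and the mean ± SD beside each group. Orm1, C9, Serping1 and C8b are lowest in pregnant rats in hypergravity, F10 is lower in both lactating groups, and A2m spreads over several log2 units within groups.

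The 4 calls other than Orm1 were less stable: with arrays centred on their medians 2 of the 40 genes were called, with the 2 groups fitted alone 1, and without any 1 liver 1 to 8. Of 13 hepatocyte markers 1 was higher in lactation in hypergravity (Cyp2e1, 0.48) and 2 were lower (Asgr1, -0.59, and Hnf4a, -0.65), with list means of 11.77 to 11.98 in lactation and 11.86 to 11.98 in pregnancy, their part in the result was not tested, and fewer cells of a type and less RNA per cell cannot be told apart in bulk tissue.

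Hypergravity against standard gravity gave 0 called genes of 40 in pregnant liver, where 0.127% of all genes were called (0.0774% lower), and 5 had an unadjusted p under 0.05, as did 2507 of all probe sets. This comparison shares the pregnant hypergravity livers with the stage comparison above. Orm1 was at 11.48 ± 0.38 in hypergravity and 12.13 ± 0.23 at standard gravity (n = 5 each), and the groups did not overlap (log2 fold change -0.65, SE 0.157, adjusted p = 0.133). C9 was at -0.34 (adjusted p = 0.346), C4bpa at -0.28 (adjusted p = 0.574) and Serping1 at -0.24 (adjusted p = 0.487). In lactating liver 0 of 40 were called, where 0.485% of all genes were, and 0 had an unadjusted p under 0.05, against 4238 of all probe sets. The 40 changes ran from -0.24 to 0.26 there, with the smallest p for the pentraxin Crp (-0.21, adjusted p = 0.398), the complement protease Cfi (-0.17, adjusted p = 0.479), Serping1 (0.14, adjusted p = 0.520) and C3 (0.15, adjusted p = 0.531). The difference between the stage effects in hypergravity and at standard gravity was called for 0 of 40 genes (0.197% of all genes, 0.113% higher and 0.0844% lower), and it was 0.71 for Orm1 (SE 0.222, adjusted p = 0.246), 0.48 for C9 (adjusted p = 0.248), 0.38 for Serping1 (adjusted p = 0.296) and 0.31 for C4bpa (adjusted p = 0.508).

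Other genes of the same pathways in liver were described by 4 lists, beside the 1.83% of all genes higher and 2.55% lower in lactation in hypergravity. In hypergravity, 1 of 18 further complement genes was higher in lactation (Clu, clusterin, 0.52, adjusted p = 0.0294) and 1 lower (Cpn1, a carboxypeptidase that inactivates anaphylatoxins, -0.78, adjusted p = 0.00434). Of 22 further coagulation genes 0 were higher and 2 lower: Vkorc1, which recycles the vitamin K that clotting factors need (-1.08, adjusted p = 0.000103), and Lman1, a cargo receptor for factors V and VIII (-0.87, adjusted p = 0.0105). The same 2 were called lower at standard gravity (-0.73 and -0.86, adjusted p = 0.0111 and 0.0320). Of 28 further plasma proteins Agt (0.60) was higher and Lrg1 (-0.93) lower. Of 28 genes of interleukin-6 and inflammatory signalling, Il1r1 was higher (0.77) and Lifr and Hnf4a lower. Lifr, the receptor of leukaemia inhibitory factor, was at -4.60 (SE 0.33, adjusted p = 1.43e-07) in lactation over pregnancy in hypergravity, and at -2.94 (SE 0.33, adjusted p = 0.000252) for hypergravity over standard gravity in lactation. Its stage effect differed between gravities (-3.35, SE 0.467, adjusted p = 0.00466).

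In adipose tissue 0 of the 40 genes were called in any of 5 comparisons, where 0.00703% of all genes were called for stage at standard gravity and 0% in the other 4. Unadjusted p-values under 0.05 numbered 3 of the 40 for stage at standard gravity (1852 of all 31042 probe sets), 2 for stage in hypergravity (1141), 6 for hypergravity in pregnancy (1283), 2 for hypergravity in lactation (709) and 1 for their interaction (1055). For Serpina3n, lactating rats in hypergravity had 9.12, 10.71, 8.88 and 9.79, against 8.64, 7.34, 8.43, 7.72 and 7.67 in pregnant ones (log2 fold change 1.67, SE 0.56, adjusted p = 0.9999). At standard gravity lactating rats had 8.79, 9.69, 10.84, 7.49 and 8.41, against 7.29, 7.75, 7.28, 6.79 and 5.78 in pregnancy (2.07, SE 0.528, adjusted p = 0.590). The groups did not overlap in hypergravity and overlapped at standard gravity. Fgg, a fibrinogen chain, had 4.79, 5.11, 5.90, 5.88 and 4.77 in lactation at standard gravity, against 3.88, 3.24, 3.62, 3.36 and 2.69 in pregnancy, without overlap (1.93, SE 0.354, adjusted p = 0.384). Orm1 was at 12.10 in the adipose array A44S of a pregnant rat at standard gravity, against 2.85 to 5.10 on the other 18 arrays. On A44S the hepatocyte protein gene Alb had 5.96, the lowest of its group, whose highest value was 11.07.

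The 4 effects were also compared directly between liver and adipose tissue, as the effect in liver minus that in adipose tissue. The rats were the same except that A210H was left out and L210H was kept. Of the 40 genes 0 were called in each, where 0.106% (stage at standard gravity), 0.992% (stage in hypergravity), 0.0422% (hypergravity in pregnancy) and 0.0633% (hypergravity in lactation) of all genes were called. The smallest adjusted p was 0.162, for the stage effect on Serpina3n at standard gravity (-2.10, SE 0.582).

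In mammary gland the first comparison set hypergravity against standard gravity in lactation. Of the 40 genes 7 were higher in hypergravity and 0 lower, where 12.4% of all genes were called (6.22% higher and 6.23% lower). The 7 were the acute phase genes Orm1, Lbp, Serpina3n and Cp and the complement genes C3, Cfi and C4bpa. For each of them every hypergravity array in the fit lay above every standard gravity array. Over the 40 genes 8 had no overlap between these groups, and the share of all genes without overlap was not taken. The left-out array A210H, which carried milk protein RNA, did not keep this separation for Cp, Cfi and Serpina3n. Of the 14 coagulation genes 0 were called. The median change of the 40 genes was -0.005, against 0.02 for all genes. Cp falls outside the number of genes set to be named here and was added after its values were seen.

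Promoters are printed because these genes rose together in lactating mammary gland, but only for those that held one of the letter patterns below. Cfi held none of them and Lbp had no promoter available, so neither is printed. The sequences are from RefSeq on the GRCr8 rat assembly, run from 250 bases before to 50 bases after the transcription start, and are written 5′ to 3′ on the gene's strand. C3 lies at chr9:2201290-2201589 (minus strand), C4bpa at chr13:44663422-44663721 (minus), Orm1 at chr5:81788259-81788558 (plus), Cp at chr2:104368420-104368719 (plus) and Serpina3n at chr6:129088142-129088441 (plus). Capitals mark the C/EBP letters TTGCNNAA on either strand in the first 4, and the STAT letters TTCNNNGAA in Serpina3n.
C3: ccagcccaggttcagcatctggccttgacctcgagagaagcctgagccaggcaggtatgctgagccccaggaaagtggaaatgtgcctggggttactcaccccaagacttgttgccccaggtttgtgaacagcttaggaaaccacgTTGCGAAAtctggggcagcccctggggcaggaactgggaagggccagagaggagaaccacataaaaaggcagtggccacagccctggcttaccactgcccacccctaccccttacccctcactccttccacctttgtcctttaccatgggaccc
C4bpa: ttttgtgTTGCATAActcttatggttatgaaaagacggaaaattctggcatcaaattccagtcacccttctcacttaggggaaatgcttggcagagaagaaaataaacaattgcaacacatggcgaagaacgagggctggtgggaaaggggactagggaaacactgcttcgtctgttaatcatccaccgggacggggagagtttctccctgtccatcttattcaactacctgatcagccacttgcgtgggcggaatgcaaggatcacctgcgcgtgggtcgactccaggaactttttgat
Orm1: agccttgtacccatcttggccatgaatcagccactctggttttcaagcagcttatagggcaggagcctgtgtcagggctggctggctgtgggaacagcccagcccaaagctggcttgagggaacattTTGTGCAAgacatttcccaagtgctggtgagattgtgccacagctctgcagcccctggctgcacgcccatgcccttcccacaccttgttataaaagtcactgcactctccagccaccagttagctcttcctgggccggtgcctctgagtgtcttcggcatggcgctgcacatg
Cp: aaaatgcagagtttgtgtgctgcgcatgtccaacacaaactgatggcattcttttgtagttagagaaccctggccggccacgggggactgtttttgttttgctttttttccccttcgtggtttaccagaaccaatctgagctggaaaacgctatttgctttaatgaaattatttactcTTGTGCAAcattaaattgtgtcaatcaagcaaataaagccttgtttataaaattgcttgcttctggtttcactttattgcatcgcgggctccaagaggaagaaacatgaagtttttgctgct
Serpina3n: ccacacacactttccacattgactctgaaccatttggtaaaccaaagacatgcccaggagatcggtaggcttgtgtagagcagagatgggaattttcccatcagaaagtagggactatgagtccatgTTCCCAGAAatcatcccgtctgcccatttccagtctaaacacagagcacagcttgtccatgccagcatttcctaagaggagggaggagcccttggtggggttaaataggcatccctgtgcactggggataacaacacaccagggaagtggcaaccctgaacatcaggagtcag

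Counted from the transcription start, the match begins at base -104 in C3, -243 in C4bpa, -123 in Orm1, -72 in Cp and -123 in Serpina3n. For Cp and C4bpa the start used lies inside the annotated gene, whose 5′ end is at chr2:104368336 and chr13:44663552. Their positions are therefore not counted from that 5′ end, and the whole Cp window lies within the gene. Of the 40 genes 33 had a promoter in the table, and Lbp was not among them. The letters TTGCNNAA occurred in 15 of these 33 (45.5%), against 11.4% of 27457 genes, and TTCNNNGAA in 8 (24.2%), against 9.39%. The HNF1 palindrome occurred in 0 of the 33 and in 1 of all genes. Cfi held none of the 3. The C/EBP letters were also found in Ahsg, C6, C8a, C8b, F9, Fga, Fgb, Hpx, Itih4, Klkb1 and Serpinc1. The STAT letters were also found in C4bpb, C8a, F9, Fga, Fgb, Itih4 and Vtn. None of these genes was called for hypergravity in lactating mammary gland, and the part of the letters in the rise was not tested. A match is a description of letters and not a measured binding site.

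Lbp had 11.64, 11.23, 10.99 and 11.49 in lactating mammary gland in hypergravity, against 8.28, 7.59, 8.11, 9.01 and 7.49 at standard gravity. The lowest hypergravity array thus lay well above the highest standard gravity array, and the level was 9.47-fold higher (log2 fold change 3.24, SE 0.298, adjusted p = 2.12e-06). These 4 arrays also lay above every liver array, where Lbp ran from 8.48 to 9.86. Orm1 had 7.96, 8.52, 7.23 and 7.37 in hypergravity, against 4.27, 3.09, 3.57, 2.88 and 3.92 at standard gravity (4.23, SE 0.90, adjusted p = 0.00461). Its standard gravity values all lay below the array medians, so the 18.7-fold difference is approximate.

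C3, Cfi and C4bpa act in complement. C3 had 10.12, 10.96, 10.38 and 11.12 in hypergravity, against 8.82, 7.20, 8.04, 8.49 and 7.90 at standard gravity (5.88-fold, log2 fold change 2.55, SE 0.348, adjusted p = 9.56e-05). Cfi, the protease that cleaves activated C3 and C4, had 7.40, 7.29, 6.35 and 8.71, against 5.54, 4.17, 3.78, 6.30 and 4.68 at standard gravity (2.54, SE 0.682, adjusted p = 0.0228). Its lowest hypergravity array lay just above the highest standard gravity array. C4bpa, which encodes a chain of a fluid-phase complement inhibitor, had 5.50, 4.74, 5.16 and 6.29, against 2.46, 3.23, 3.25, 3.37 and 3.12 at standard gravity (2.34, SE 0.689, adjusted p = 0.0387). All standard gravity values of C4bpa and some of those of Cfi lay below the array medians, so these differences are approximate too.

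Cp had 10.83, 10.46, 10.93 and 10.93 in lactating mammary gland in hypergravity, against 9.35, 9.23, 9.66, 9.97 and 8.65 at standard gravity (2.66-fold, log2 fold change 1.41, SE 0.248, adjusted p = 0.000973). Serpina3n had 5.81, 5.73, 6.56 and 5.65, against 3.38, 4.06, 4.94, 4.39 and 5.18 at standard gravity (1.55, SE 0.465, adjusted p = 0.0424). For both genes the hypergravity arrays lay close together and the standard gravity arrays were spread over more than 1 log2 unit.

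**Figure D3:**
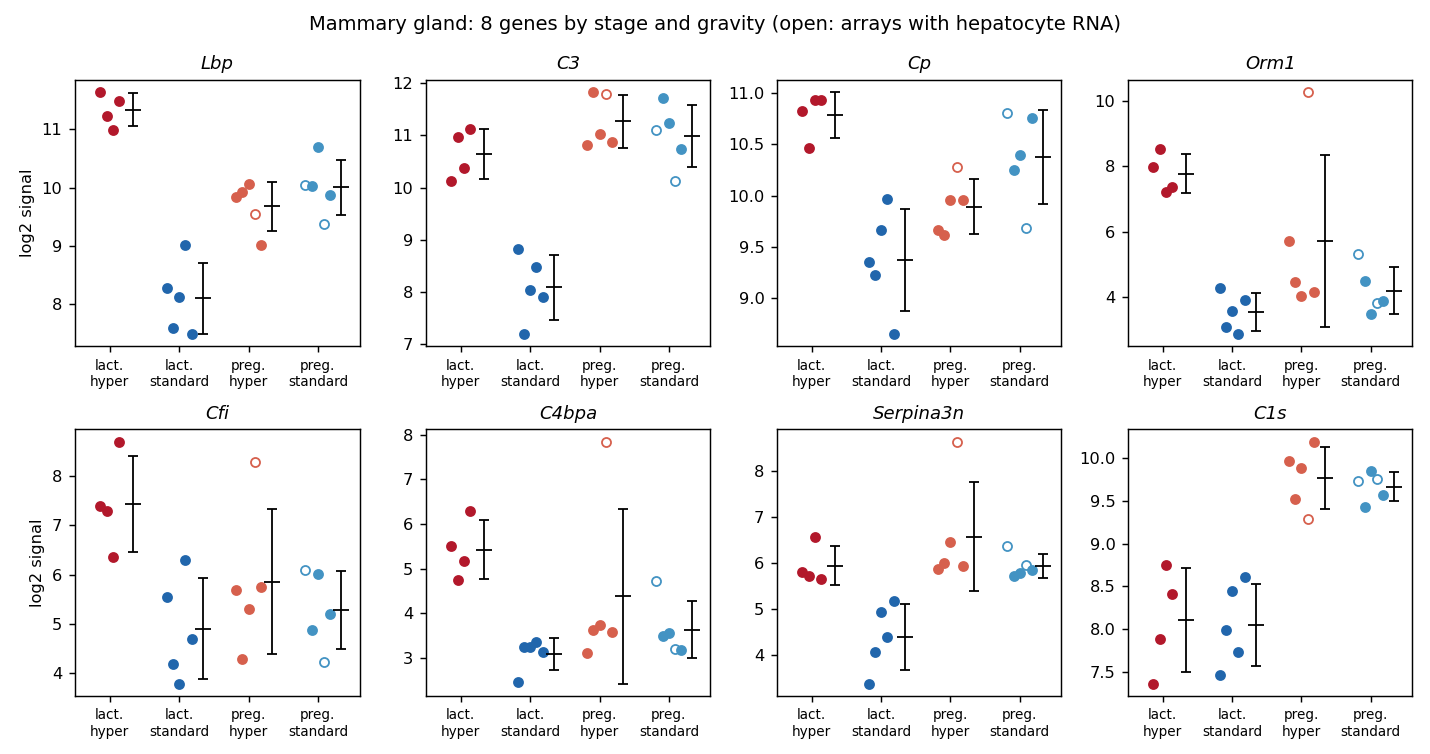
Log2 signal in mammary gland (vertical axes, each with its own range) for 8 genes in the groups lactation in hypergravity (4 arrays), lactation at standard gravity, pregnancy in hypergravity and pregnancy at standard gravity (5 arrays each), with the mean ± SD beside each group and open symbols for M52S, M56H and M57S. Lbp, C3, Cp, Orm1, Cfi, C4bpa and Serpina3n are higher in lactation in hypergravity than at standard gravity on every array, while C1s is lower in both lactating groups than in pregnancy.

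Leaving out M52S, M56H and M57S, all from pregnant rats, gave 8 higher and 1 lower of the 40 (6.99% and 6.67% of all genes). The 7 genes were all called in that fit, with Fgg (0.63, adjusted p = 0.0488) joining them and Vtn lower (-0.95, adjusted p = 0.0252). Fgg averaged 3.24 over the 16 mammary arrays of that fit, below the array medians, so its difference is approximate. Leaving out M212H and M50H instead left Lbp, C3, Orm1 and Cp called (5.42% of all genes higher and 5.06% lower). Cfi (2.59, adjusted p = 0.0523), C4bpa (2.56, adjusted p = 0.0528) and Serpina3n (1.62, adjusted p = 0.0811) were then not called. Without all 5 of these arrays the 7 genes were all called, Cfi at adjusted p = 0.0179, C4bpa at 7.39e-05 and Serpina3n at 0.00805. Of all genes 6.03% were then higher and 5.51% lower. With the exchanged array M210H kept under its label 2 were called, C4bpa and Serpina3n (4.98% of all genes higher and 5.58% lower).

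Some markers of other cells moved in the same comparison. Of 5 neutrophil markers 2 were higher in hypergravity and 0 lower (S100a8 4.17, adjusted p = 3.11e-05, and S100a9 2.38), and the mean of the list was 4.68 to 5.87 in hypergravity, against 3.75 to 4.18 at standard gravity. The median change over these 5 was 0.09, so the shift of the mean rests on S100a8 and S100a9. Of 9 macrophage markers 2 were higher (Aif1 1.02 and Mrc1 0.75) and 0 lower, with means of 7.21 to 8.002 in hypergravity and 6.98 to 7.42 at standard gravity. Of 4 cholangiocyte markers, genes that other duct epithelium also expresses, 3 were higher (Krt7 3.17, Epcam 0.93 and Spp1 0.85), with means of 7.71 to 8.996 in hypergravity and 6.12 to 6.52 at standard gravity. Of 6 milk protein genes 2 were lower (Lpo -2.06 and Wap -0.34), with means of 12.07 to 12.24 in hypergravity and 12.53 to 12.73 at standard gravity. Of 5 endothelial markers Kdr was lower (-1.38). Their part in the result was not tested. Hepatocyte markers were at 3.43 to 3.83 in hypergravity and 3.42 to 4.21 at standard gravity, below the array medians in both, with 0 of 13 called.

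In the further lists, 7 of 28 genes of interleukin-6 and inflammatory signalling were higher in hypergravity in lactating mammary gland and 1 was lower, where 6.22% of all genes were higher and 6.23% lower. The higher ones included Cd14 (3.46, SE 0.45, adjusted p = 6.07e-05), the receptor that Lbp serves, Stat3 (2.45, SE 0.483, adjusted p = 0.00255), the kinase gene Jak2 (1.32) and Nfkb1 (1.13), and the glucocorticoid receptor gene Nr3c1 was lower (-1.11). Of 28 further plasma proteins Lrg1 (1.77) and Lcn2, an iron-scavenging lipocalin (0.87), were higher and 0 lower. Of 18 further complement genes Clu (1.79) was higher and Masp2, a protease of the lectin pathway, lower (-0.78). Of 22 further coagulation genes Plat, tissue plasminogen activator, was higher (0.63) and Thbd, the endothelial thrombin receptor thrombomodulin (-1.47), Mcfd2 (-1.02) and Lman1 (-0.73) were lower.

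In liver of these lactating rats and of the rat of M210H, 0 of these 7 genes were called. The difference between the tissues was therefore tested itself, as the hypergravity effect in mammary gland minus that in liver. This comparison was added after the values were seen. Of the 40 genes 4 were higher and 0 lower, where 6.41% of all genes were called and 3.45% were higher. The difference was 2.71 for Cfi (SE 0.582, adjusted p = 0.00157), 2.98 for Lbp (SE 0.694, adjusted p = 0.00394), 4.16 for Orm1 (SE 1.24, adjusted p = 0.0362) and 1.57 for Cp (SE 0.481, adjusted p = 0.0454). It was not called for C4bpa (2.31, adjusted p = 0.0585), C3 (2.41, adjusted p = 0.149) and Serpina3n (1.56, adjusted p = 0.157). This fit takes 1 spread per gene over all 3 tissues and treats tissues of 1 rat as independent. Whether a gene was called here therefore also depends on its spread in liver and adipose tissue. For Cfi the SE is smaller than that of its mammary effect alone. Without the arrays carrying RNA of another tissue 5 of the 40 were called, without 1 rat the count was 2 to 6, and with the rat as a replicate block it was 5. The share of all genes was not taken in these repeats.

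**Figure D4:**
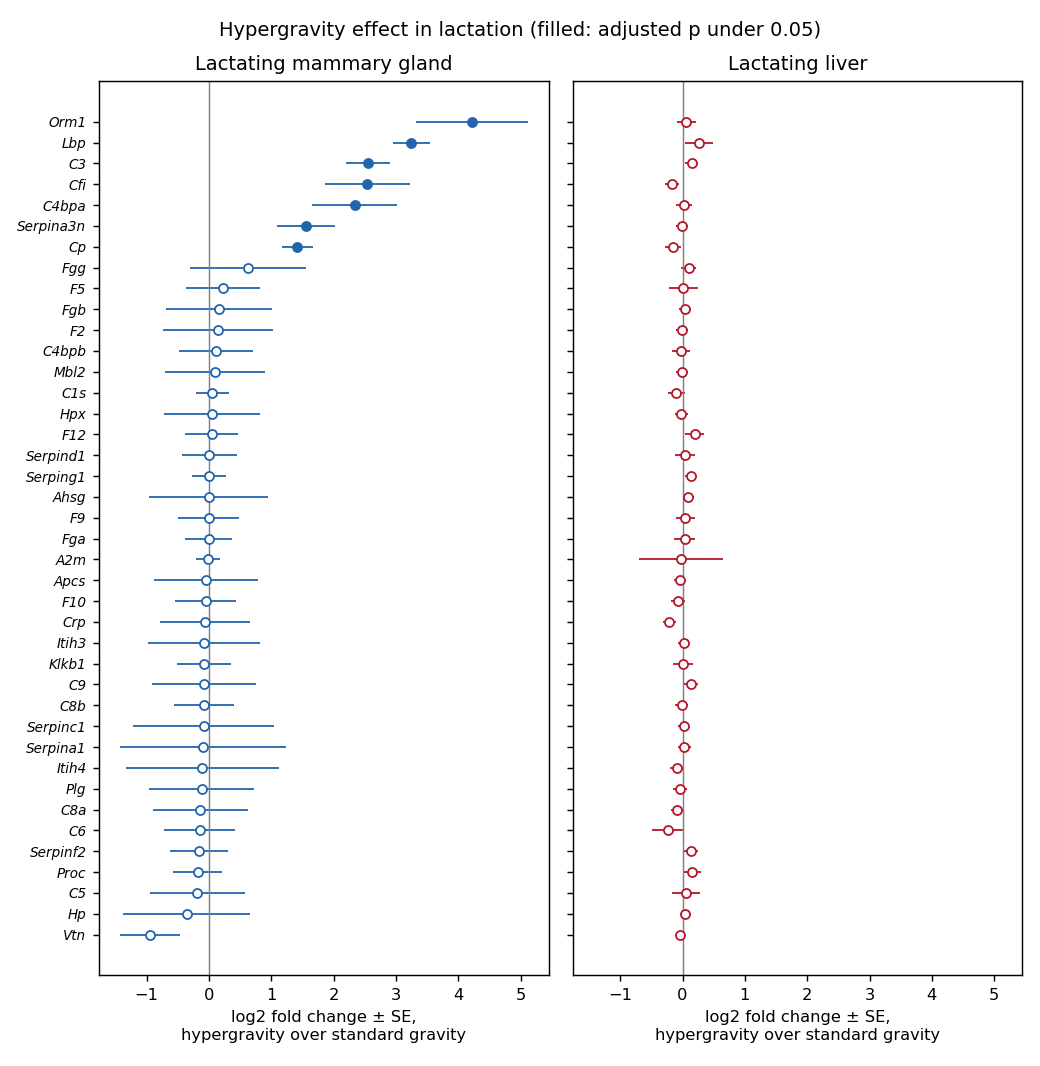
Log2 fold change of hypergravity over standard gravity in lactation (horizontal axes, ± SE) for the 40 genes (rows, ordered by the mammary value) in mammary gland (left, 4 against 5 arrays) and liver (right, 5 against 5), with filled symbols for adjusted p under 0.05. The rats are the same except that M210H was left out and L210H was kept. The 7 filled genes run from 1.41 to 4.23 in mammary gland, and all liver values lie between -0.24 and 0.26.

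In pregnant mammary gland hypergravity gave 0 called genes of 40, where 0.00703% of all genes were called, and 1 had an unadjusted p under 0.05, as did 1668 of all 31042 probe sets. The smallest p-values belonged to Fga (0.85, adjusted p = 0.884), Cp (-0.48, adjusted p = 0.935) and Orm1 (1.52, adjusted p = 0.957). The median change of the 40 was 0.44, and the hypergravity group holds M56H. Without M52S, M56H and M57S 0 of the 40 were called as well, where 0% of all genes were. The gravity effect was larger in lactation than in pregnancy for 3 of the 40 genes and smaller for 0 (5.65% of all genes called, 3.14% larger and 2.51% smaller). These were Lbp (3.58, SE 0.41, adjusted p = 0.0001), C3 (2.27, SE 0.478, adjusted p = 0.0101) and Cp (1.90, SE 0.342, adjusted p = 0.0031). Without M52S, M56H and M57S the same 3 were called (3.74, 2.65 and 2.08), together with Orm1 (3.59, adjusted p = 0.00256) and C4bpa (2.23, adjusted p = 0.00547). Of all genes 2.68% were larger and 2.44% smaller in that fit.

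Between lactation and pregnancy at standard gravity 6 of the 40 genes were lower in mammary gland and 0 higher, where 40% of all genes were called (25.7% lower). The count is thus no larger than in genes at large. C3 averaged 8.09 ± 0.62 in lactation and 10.98 ± 0.59 in pregnancy (n = 5 each), a 7.43-fold difference (-2.89, SE 0.328, adjusted p = 5.65e-06). Lbp averaged 8.10 ± 0.61 and 10.01 ± 0.47 in these groups (-1.91, SE 0.281, adjusted p = 6.29e-05). C1s was at -1.62 (adjusted p = 0.000107), Serpina3n at -1.55 (adjusted p = 0.0103), Cp at -1.005 (adjusted p = 0.0028) and Serping1 at -0.98 (adjusted p = 0.00633). Without the 3 arrays carrying hepatocyte RNA these 6 were all called, and so was C5 (-0.42, adjusted p = 0.0199). C5 averaged 3.33 over the mammary arrays of that fit, below the array medians, so its difference is approximate. Of all genes 22.8% were lower and 12.1% higher in that fit. Of 9 macrophage markers 5 were lower in lactation and 0 higher, with list means of 6.98 to 7.42 in lactation and 7.99 to 8.42 in pregnancy. Of 4 cholangiocyte markers 2 were lower (means of 6.12 to 6.52 in lactation and 6.46 to 7.76 in pregnancy), of 6 milk protein genes 3 were higher (12.53 to 12.73 and 11.96 to 12.18 in these groups), and of 5 endothelial markers 2 were higher and 1 lower. Their part in the result was not tested.

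In hypergravity 2 of the 40 genes were higher in lactating mammary gland and 3 lower, where 34.7% of all genes were called, 13.5% higher and 21.2% lower. This comparison shares its lactating arrays with the gravity comparison above. Lbp averaged 11.34 ± 0.29 in lactation (n = 4) and 9.67 ± 0.41 in pregnancy (n = 5), so it was higher in lactation (1.67, SE 0.298, adjusted p = 0.000603), and Cp was higher as well (0.89, SE 0.248, adjusted p = 0.0116). C1s had 7.36, 7.89, 8.74 and 8.42 in lactation, against 9.96, 9.52, 9.88, 9.29 and 10.19 in pregnancy (-1.67, SE 0.268, adjusted p = 0.000261). Serping1 was at -0.84 (adjusted p = 0.0272), but was not called without M212H and M50H (-0.73, adjusted p = 0.124), and Vtn was at -1.97 (adjusted p = 0.00505). Vtn reached 10.42 on M56H, and without the 3 arrays carrying hepatocyte RNA it was at -1.41 (adjusted p = 0.000754). In that fit 5 genes were higher and 5 lower (15.5% and 25.7% of all genes), with Orm1 (3.18, adjusted p = 2.54e-05), Cfi (2.19, adjusted p = 0.00565) and C4bpa (1.91, adjusted p = 8.82e-05) newly higher and Serpinf2 (-0.57, adjusted p = 0.0222) and Itih4 (-0.68, adjusted p = 0.0177) newly lower. Over the mammary arrays of that fit Serpinf2 averaged 4.05 and Itih4 3.63, below the array medians, so their differences are approximate. Of 5 neutrophil markers 2 were higher in lactation in hypergravity and 0 lower, with list means of 4.68 to 5.87 in lactation and 3.51 to 3.83 in pregnancy. The median change over these 5 was 0.11. Of 9 fibroblast and stellate cell markers 3 were higher and 0 lower (8.39 to 8.96 and 7.83 to 8.42 in these groups). Of 9 macrophage markers 1 was higher and 3 were lower (7.21 to 8.002 and 7.99 to 8.34), and of 9 adipocyte markers 1 was higher and 3 were lower (7.33 to 7.97 and 7.58 to 8.33). Their part in these changes was not tested.

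In the microgravity set 0 of the 40 genes were called for microgravity against the flight control (0.506% of all genes), for microgravity against the vivarium control (0.626%) or for the flight against the vivarium control (0%). An unadjusted p under 0.05 was found for 1, 6 and 3 of the 40 in these comparisons, and for 4100, 2951 and 2851 of all 31042 probe sets. In this set 7 of the 40 lay above the array median on all 12 arrays and 26 on none. Orm1 had 4.15, 4.18, 8.19 and 7.09 in arrays FLTA to FLTD, against 3.35, 2.72, 3.72 and 3.49 in FDSA to FDSD and 3.96, 3.35, 3.41 and 3.76 in VIVA to VIVD. All 4 microgravity arrays lay above all controls, but 2 of them did so by several log2 units and the other 2 lay below the array median (2.58 against the flight control, SE 0.73, adjusted p = 0.149, and 2.28 against the vivarium control, SE 0.73, adjusted p = 0.252). The hepatocyte gene Alb had 6.31, 9.81, 5.94 and 5.47 on FLTA to FLTD, and its part in the Orm1 values was not tested. C3 had 10.50, 10.53, 10.46 and 10.61 in microgravity, against 10.67, 10.46, 11.16 and 10.49 in the flight control and 11.03, 10.94, 10.99 and 10.88 in the vivarium control. Microgravity lay below the vivarium control without overlap (-0.44, SE 0.139, adjusted p = 0.249) and overlapped the flight control. Lbp had 9.44, 9.45, 9.96 and 9.87 in microgravity, against 9.71, 9.40, 10.36 and 9.71 in the flight control, with overlap. The remaining genes with the smallest p were C8a (-0.32, adjusted p = 0.432) and Hp (0.29, adjusted p = 0.444) against the flight control, C4bpa (-0.45, adjusted p = 0.383) against the vivarium control, and C4bpb (0.53), Klkb1 (0.27) and F10 (0.47) between the controls (adjusted p = 0.473, 0.526 and 0.526).

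**Figure D5:**
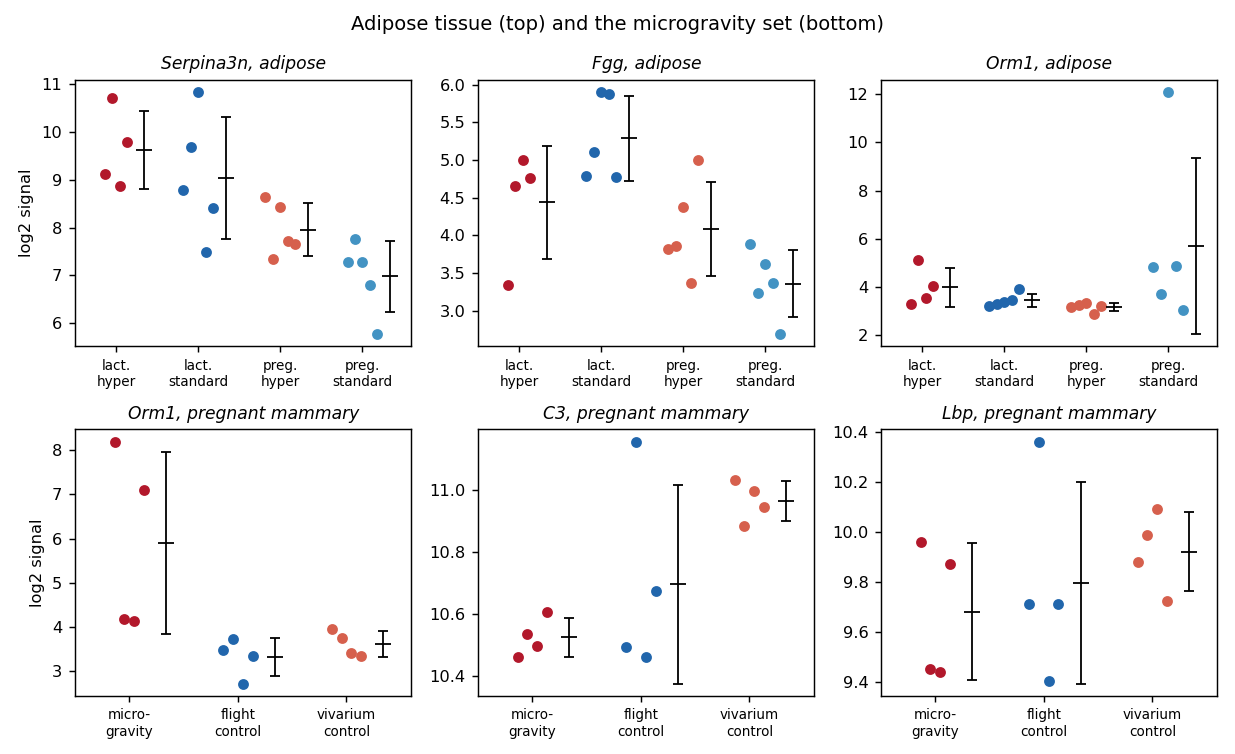
Log2 signal (vertical axes, each with its own range) for Serpina3n, Fgg and Orm1 in adipose tissue (top, 4 or 5 arrays per group) and for Orm1, C3 and Lbp in pregnant mammary gland of the microgravity set (bottom, 4 arrays per group), with 1 point per array and the mean ± SD beside each group. A single adipose array reaches 12.10 for Orm1, and 2 microgravity arrays reach 7.09 and 8.19 for it.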

How the data were processed

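The authors deposited 1 table of log2 signals for 31042 probe sets on 72 arrays, summarised with RMA per the submitters' processing notes, with no version and no statement of which arrays were normalized together. Per the labels' protocols liver and mammary RNA came from TRIzol extraction and adipose RNA from RNeasy Lipid kits, and 25 ng was amplified and biotin-labelled with NuGEN Ovation. 0 columns were left unused. In the platform annotation 20826 probe sets carry 1 gene symbol, 436 several and 9780 none. For each gene the probe set bearing its symbol alone and averaging highest over the 60 arrays other than the microgravity set was used. All 40 genes matched RefSeq (GRCr8), which gave positions and promoters.

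Groups came from the sample labels. The tests used limma 3.58.1 under R 4.3.3 (group means model, lmFit and eBayes, two-sided, Benjamini-Hochberg over all probe sets), in 1 fit per tissue (20 liver, 19 adipose and 19 mammary arrays, without A210H and M210H), 1 for the 12 arrays of the microgravity set and 1 over 58 arrays for differences between tissues. Called means adjusted p under 0.05. SE is limma's moderated standard error. Background percentages count each of 14217 genes once. No probe set was filtered. The fits were tested on simulated data. Repeats used quantile normalization, median centring, a filter on dim probe sets, a trend, array weights, the mean of a gene's probe sets, the compared groups alone, each array left out, arrays with RNA of another tissue left out, and replicate blocks. The rat codes pair tissues of 1 animal. The labels do not say whether the A to D codes pair the microgravity arrays. Correlations of deviations ran from -0.15 to 0.08 for the same letter and from -0.16 to 0.29 for different letters, which does not settle it. In liver comparisons up to 12 called genes by size are named, or else the 4 with the smallest p, elsewhere up to 6 or 3, and from further lists up to 4 called genes. For arrays, their number limits the precision. The genes and lists were chosen with earlier results of these data known.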

Additional observations from a re-analysis of the deposited data

Results flagged for a closer look

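In groups of 4 or 5 arrays, 7 of 103 checked had 1 array far from the others, where chance gives about 1 in 20. In liver F10 was 11.29 on L57S, with the other pregnant livers at standard gravity at 11.52 to 11.58. C4bpa was 10.98 on L56H, with the others at 11.36 to 11.49, and Cfi was 11.29 on L214S, with the others at 11.44 to 11.50. In adipose tissue C4bpa was 5.40 on A52S (others 3.19 to 3.40) and Plg was 4.45 on A57S (others 4.18 to 4.25). In mammary gland Orm1 was 10.27 on M56H (others 4.03 to 5.70), which carries hepatocyte RNA, and C4bpa was 2.46 on M216S (others 3.12 to 3.37).

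Effects that differed between groups by a direct test were the larger hypergravity effect in lactating than in pregnant mammary gland for Lbp (3.58, adjusted p = 0.0001), C3 (2.27, adjusted p = 0.0101) and Cp (1.90, adjusted p = 0.0031), and the larger hypergravity effect in mammary gland than in liver of lactating rats for Cfi (2.71, adjusted p = 0.00157), Lbp (2.98, adjusted p = 0.00394), Orm1 (4.16, adjusted p = 0.0362) and Cp (1.57, adjusted p = 0.0454), all by limma over all probe sets.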

How the results depend on the processing

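Every comparison was repeated under the other settings, and the 30 calls of single genes were repeated 873 times in all: 765 repeats kept the call, 108 lost it and 0 reversed it. The 4 calls kept under every repeat were Orm1 in liver for stage in hypergravity, C1s in mammary gland for stage at both gravities and C3 in mammary gland for stage at standard gravity. For hypergravity in lactating mammary gland, Lbp, C3, Orm1 and Cp each lost 1 of 30 repeats, the one with the exchanged array M210H. In that comparison Cfi lost 6 repeats, C4bpa 9 and Serpina3n 13. In liver C9 and F10 lost 8 of 27 repeats and C8b and Serping1 lost 9.

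For stage in hypergravity in liver (5 called) the count was 2 with median-centred arrays, 1 with the compared groups alone and 1 to 8 without 1 array, moving by over 1.5 times without L203H, L210H, L217H, L50H, L55H, L56H, L57S, L59H or L60H. At standard gravity it was 0 to 1 without 1 array (1 without L57S). A trend gave 1 for hypergravity in pregnant liver. For stage at standard gravity in mammary gland (6) it was 10 with array weights, 2 with M210H and 6 to 11 without 1 array. For stage in hypergravity (5) it was 8 with array weights, 3 with the compared groups alone, 10 without the 3 arrays carrying hepatocyte RNA, 8 also without M212H and M50H, and 4 to 9 without 1 array. For hypergravity in lactation (7) it was 2 with M210H, 4 without M212H and M50H, 9 without these and the 3 arrays carrying hepatocyte RNA (8 higher and 1 lower), and 4 to 8 without 1 array (lowest without M201S, M203H or M206H). For the interaction (3) it was 5 with array weights, 0 with M210H, 5 without the 3 arrays carrying hepatocyte RNA, 5 also without M212H and M50H, and 3 to 5 without 1 array. In these mammary stage comparisons and the interaction the highest count without 1 array was that without M56H. Microgravity against the vivarium control gave 1 with the compared groups alone. The stage effect in liver minus adipose tissue at standard gravity gave 1 without arrays carrying RNA of another tissue and 0 to 1 without 1 rat. The hypergravity effect in mammary gland minus liver (4) gave 7 with array weights, 1 with M210H and A210H, and 2 to 6 without 1 rat, moving by over 1.5 times without the rat of M201S, M202S, M203H, M206H, M212H, M216S or M217H. The cause was not tested. The share of all genes was not taken for most of these repeats, so the counts show only how far the main counts held.

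The replicate block by letter left the count at 0 in the microgravity set, and the block by rat changed no other count by over 1.5 times. The mammary repeats without all 5 arrays carrying RNA of another tissue, and the comparison of mammary gland with liver, were added after seeing the data. Genes near or below the array median have compressed differences.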

Other observations

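Array A210H, labelled as adipose tissue of a lactating rat in hypergravity and left out of every fit, carried milk protein RNA. It had 10.32 for Lbp, 10.50 for C3, 9.52 for Cp, 6.39 for Orm1, 6.15 for Cfi, 4.75 for C4bpa and 4.70 for Serpina3n. Its values of Cp, Cfi and Serpina3n lay within the range of lactating mammary gland at standard gravity. Those of Lbp, C3, Orm1 and C4bpa lay above that range. Array M210H, labelled as mammary gland of the same rat, had 4.12 for Lbp, 6.64 for C3, 7.10 for Cp, 3.27 for Orm1, 2.47 for Cfi, 6.56 for C4bpa and 9.40 for Serpina3n.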
